A study of Mus musculus with 6 samples.

Results

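The genes described here are the interferon-induced transmembrane genes Ifitm1, Ifitm2, Ifitm3, Ifitm5 and Ifitm7 together with the restriction factor genes Bst2, Samhd1, Apobec3 and Mov10. They were chosen by symbol in the platform's table of probes and genes. All 9 had a probeset of their own, 13 of the 26851 probesets on the array, and 0 member symbols stood on a probeset shared with another gene. The study compared cultured mouse embryonic fibroblasts that carried a control hairpin, shSCR, with fibroblasts that carried a hairpin against ARF, shARF, on 3 arrays each. The series title calls the cells of both groups dp53R, and every sample title carries the word Ras. Neither term is spelled out in the sources used here, nor is the number of hairpins, clones or embryos behind a group. The labels call the 3 samples of a group biological replicates without naming separate cultures or animals, so the p-values rest on the spread between arrays, which may be technical. Each value is a signal normalized by the authors with RMA (robust multi-array average) and deposited on a linear scale.

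Restriction factors are host proteins that block a step of a virus's life cycle inside the cell, and many of their genes are induced by interferon through transcription factors such as STAT2 and IRF9. IFITM proteins sit in the plasma membrane and in endosomes and hinder the fusion of viral and cellular membranes; IFITM5 is instead a bone protein of osteoblasts. BST2, or tetherin, holds budding virions on the cell surface. SAMHD1 breaks down the deoxynucleotides needed for reverse transcription, APOBEC3 deaminates cytidines in viral DNA copies and is packaged into retroviral particles, and MOV10 is an RNA helicase that restrains retroviruses and retrotransposons.

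The promoters of the members that rose did not share one set of letters. RefSeq windows of assembly GRCm38.p6, 300 bases long with 250 before the transcript start, were found for all 9 genes, 11 windows in all. They were searched on both strands for the core of the interferon-stimulated response element (ISRE), written GAAA, any 2 bases, GAAA, and for TTCNNNGAA, the core of the GAS element, another interferon-responsive sequence. The ISRE core stood in at least 1 window of 4 of the 9 genes, Ifitm2, Ifitm3, Bst2 and Apobec3, against 3.99% of the 27025 genes in the table. TTCNNNGAA stood in windows of 3 of the 9, Ifitm3, Bst2 and Samhd1, against 9.55% of genes. A form of the ISRE core shorter by its last A, which every full match contains, stood in the same 4 genes, against 9.76%. In Bst2 and Ifitm3 a TTCNNNGAA match overlaps an ISRE core. A match is a description of letters and not a bound site. Some windows lie inside the gene's annotated span and not at its outer start. That of Ifitm2 is at 140955912 to 140956211, in a minus-strand gene that spans 140954837 to 140959686. That of Ifitm1 is at 140967826 to 140968125, in a plus-strand gene that spans 140967429 to 140969827. Sequence at other starts of these genes was not searched. The stretches below are shown 5′ to 3′ on the gene's strand with ISRE core matches, read on either strand, in capitals. The first pair sets Bst2, which has overlapping matches 130 to 115 bases before its start, beside Mov10, which also rose and has no match in either of its 2 windows. The other lines are 30-base stretches around the first match of Ifitm3, Ifitm2 and Apobec3.
Bst2, chr8:71537473-71537722, minus strand, bases -250 to -1: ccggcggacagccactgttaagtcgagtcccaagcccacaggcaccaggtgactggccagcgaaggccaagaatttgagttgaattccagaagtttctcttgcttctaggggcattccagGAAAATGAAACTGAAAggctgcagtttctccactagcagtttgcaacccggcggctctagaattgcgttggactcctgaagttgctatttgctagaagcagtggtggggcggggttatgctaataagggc
Mov10, chr3:104818564-104818813, minus strand, bases -250 to -1: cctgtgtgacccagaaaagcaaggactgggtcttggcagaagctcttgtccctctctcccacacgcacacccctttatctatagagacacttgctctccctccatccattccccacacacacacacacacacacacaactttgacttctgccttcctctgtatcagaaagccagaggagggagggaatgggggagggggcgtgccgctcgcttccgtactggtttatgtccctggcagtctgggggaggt
Ifitm3, chr7:141010714-141010743, minus strand, bases 2 to 31: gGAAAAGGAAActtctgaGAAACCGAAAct
Ifitm2, chr7:140955979-140956008, minus strand, bases -47 to -18: gGAAAAGGAAAttgctagagaaagggcggg
Apobec3, chr15:79892258-79892287, plus strand, bases -150 to -121: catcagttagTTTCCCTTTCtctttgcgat
Ifitm3 and Ifitm2 carry the same match, GAAAAGGAAA, and 17 of the 30 bases of their stretches were identical. In Ifitm3 it lies at bases 3 to 12, just inside the transcript, with a further match, GAAACCGAAA, at bases 20 to 29. In Ifitm2 it lies at bases -46 to -37 and is the only match of the ISRE core in the window.

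Cdkn2a, the locus that encodes ARF and also INK4A, gave 535, 539 and 516 on the shSCR arrays and 315, 254 and 286 on the shARF arrays, without overlap. Its mean signal fell from 530.0 ± 12.2 (SD, n = 3) to 285 ± 30.7, a change of -0.90 ± 0.086 (SE) on the log2 scale (limma, adjusted p = 0.00459), and the call held without any 1 of the 6 arrays.

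Bst2, Mov10 and Ifitm3 were called higher in shARF cells with all 6 arrays, and none of the 9 genes was called lower. A gene was tested if its signal passed the 25th percentile of an array's values (14.1 to 14.9) on at least 3 arrays, and all 9 members, with all 13 probesets, passed that level on 6 of 6 arrays. Where a gene had several probesets, the brightest on average stood for it. At an adjusted p under 0.05 in limma, 3 members were higher and 0 lower. The same test called 1.62% of the 15145 genes tested higher and 2.38% lower, 4.01% in all. Before adjustment, limma's p was under 0.05 for 4 members higher and 1 lower, where 8.76% of all tested genes were higher and 13.4% lower. SAM, the permutation-based test named in the design text, called 3 members higher and 0 lower, and 2.67% of all tested genes higher and 3.92% lower. The arrays of the 2 groups did not overlap for 5 of the 9 genes, 3 higher and 2 lower, where 12% of all tested genes were higher without overlap and 16.6% lower, 28.6% in all. The median difference of the 9 genes was 0.19 on the log2 scale, and that of all tested genes -0.01. In bulk RNA, fewer cells of a type and less RNA per cell cannot be told apart.

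**Figure D1:**
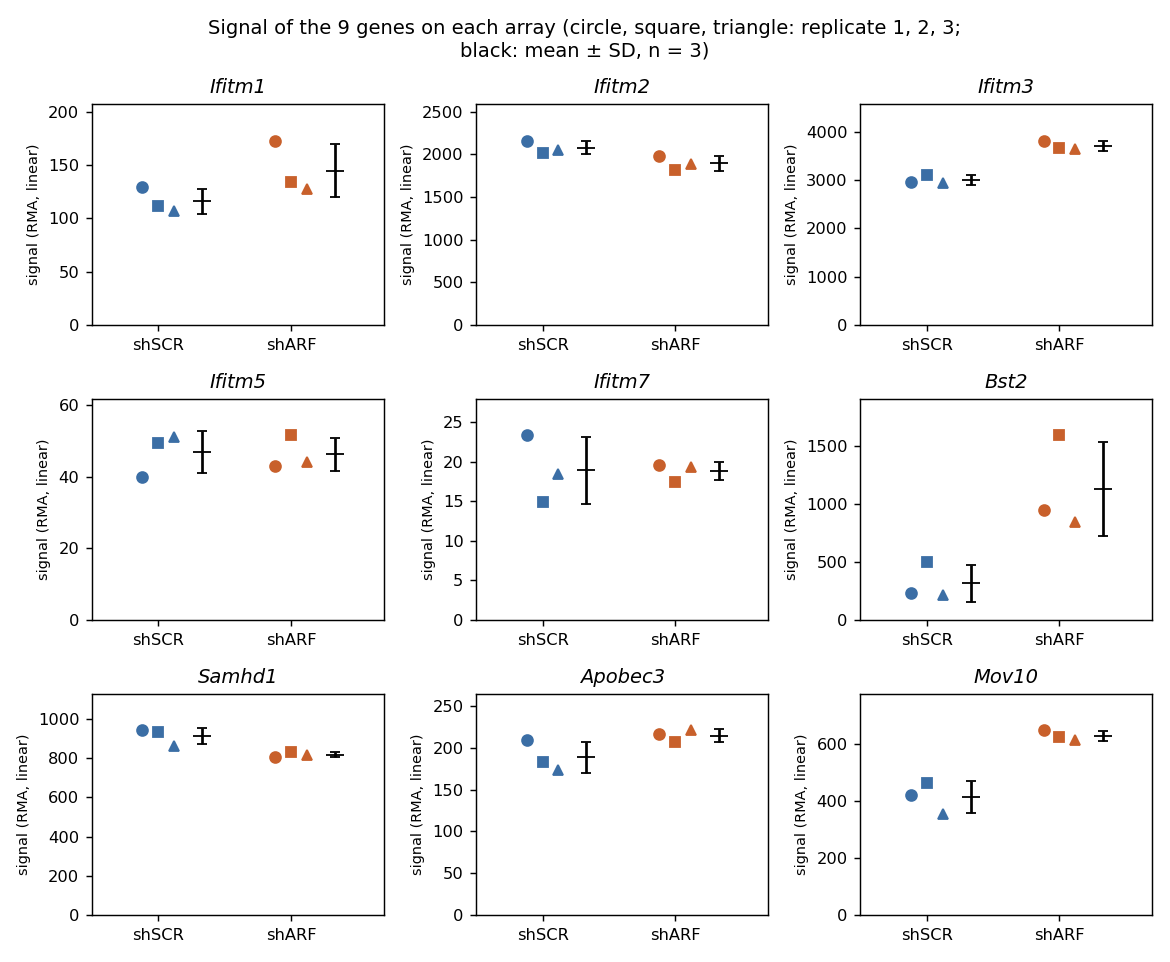
Signal (RMA, linear scale, axis from 0) of each of the 9 genes on the 3 shSCR and 3 shARF arrays, with the mean and SD (n = 3) in black. Bst2, Mov10 and Ifitm3 are higher on every shARF array than on any shSCR array, while the groups overlap for Ifitm1, Ifitm5, Ifitm7 and Apobec3.

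Bst2 showed the largest change of the 9 genes and also the widest spread between replicates. In replicate order, its signal was 230.4, 504 and 216 with the control hairpin and 953, 1595 and 845 with the ARF hairpin. Every shARF array lay above every shSCR array, and in both groups the replicate 2 array was the highest. The rise was 3.72-fold (95% interval 2.06 to 6.69), or 1.89 ± 0.36 (SE) on the log2 scale (limma, adjusted p = 0.0385). The SD between replicates was 0.59 on the log2 scale, larger than that of 99.9% of the tested probesets. Within shSCR the highest array was 2.33 times the lowest, and within shARF 1.89 times. Leaving out any 1 array other than shSCR replicate 2 ended the call (limma, adjusted p from 0.0714 to 0.128), with differences of 1.62 to 2.08. Without shSCR replicate 2 the difference was 2.29 (limma, adjusted p = 0.0161), and without both replicate 2 arrays 2.01 (limma, adjusted p = 0.00566).

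Mov10, the helicase gene, rose with little spread in shARF. The signal was 421, 463 and 355 on the shSCR arrays and 647, 625 and 612 on the shARF arrays, each in replicate order. The groups did not overlap, and the highest shSCR array was replicate 2, as for Bst2, while the highest shARF array was replicate 1. The means were 413 ± 54.7 (SD, n = 3) and 628 ± 17.6, a 1.53-fold rise (95% interval 1.30 to 1.80), or 0.61 ± 0.10 (SE) on the log2 scale (limma, adjusted p = 0.0236). The call was lost without any 1 of the 5 arrays other than shSCR replicate 2 (limma, adjusted p from 0.0504 to 0.0777), with differences between 0.51 and 0.63.

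Within the IFITM family Ifitm3 rose by 23.4% of its control level, and Ifitm2 did not pass. Ifitm3 gave 2954, 3113 and 2939 on the shSCR arrays and 3819, 3655 and 3639.9 on the shARF arrays. The replicates lay close together and the groups did not overlap. The rise was 1.23-fold (95% interval 1.12 to 1.36), or 0.30 ± 0.059 (SE) on the log2 scale (limma, adjusted p = 0.0401). It is a narrow call: it was lost without any 1 of the 6 arrays (limma, adjusted p from 0.0767 to 0.134), with a difference of 0.28 to 0.33 in those fits.

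Ifitm1, the cell-surface member of the family, differed between its 2 probesets in whether it passed. The probeset with the higher mean (10558769) gave 129.6, 111 and 107 in shSCR and 173, 134 and 128 in shARF. Its groups overlapped, since the shSCR replicate 1 array was above the shARF replicate 3 array, and the difference of 0.31 (95% interval 0.01 to 0.62) did not pass (limma, adjusted p = 0.231). The other probeset (10570434) gave 102, 90.9 and 106 in shSCR and 154, 126 and 138 in shARF, without overlap. It rose 1.40-fold, or 0.48 ± 0.096 (SE) on the log2 scale (limma, adjusted p = 0.0422). That call was lost without any 1 of the 6 arrays (limma, adjusted p from 0.0504 to 0.114).

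None of the 3 Ifitm2 probesets passed, and they differed in sign. Ifitm2, like Ifitm3, encodes an endosomal member of the family. The probeset with the highest mean (10569014) gave 2163, 2018 and 2049 in shSCR and 1983, 1813 and 1889.8 in shARF, a difference of -0.13 with a 95% interval of -0.28 to 0.02 (limma, adjusted p = 0.296). Its shARF arrays all lay below its shSCR arrays. The other 2 probesets (10383756 and 10553299), annotated to the same transcripts, differed by 0.03 and 0.04, with overlapping groups (limma, adjusted p = 0.804 and 0.82). IFITM genes are similar in sequence, so signal of one may reach probes of another, and single values are uncertain to that extent.

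Ifitm5 and Ifitm7 showed no difference that passed. Ifitm5, the osteoblast member, gave 40.0 to 51.1 in shSCR and 43.0 to 51.5 in shARF, with a difference of -0.02 (95% interval -0.28 to 0.25). Ifitm7, a member on chromosome 16 apart from the cluster on chromosome 7, gave 15.0 to 23.4 in shSCR and 17.5 to 19.6 in shARF, close to the detection level, with a difference of 0.01 (95% interval -0.34 to 0.37). Ifitm6, the remaining gene of the chromosome 7 cluster, was below the detection level, at 8.41 ± 0.43 (SD, n = 3) in shSCR and 7.83 ± 0.36 in shARF, and was not tested.

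**Figure D2:**
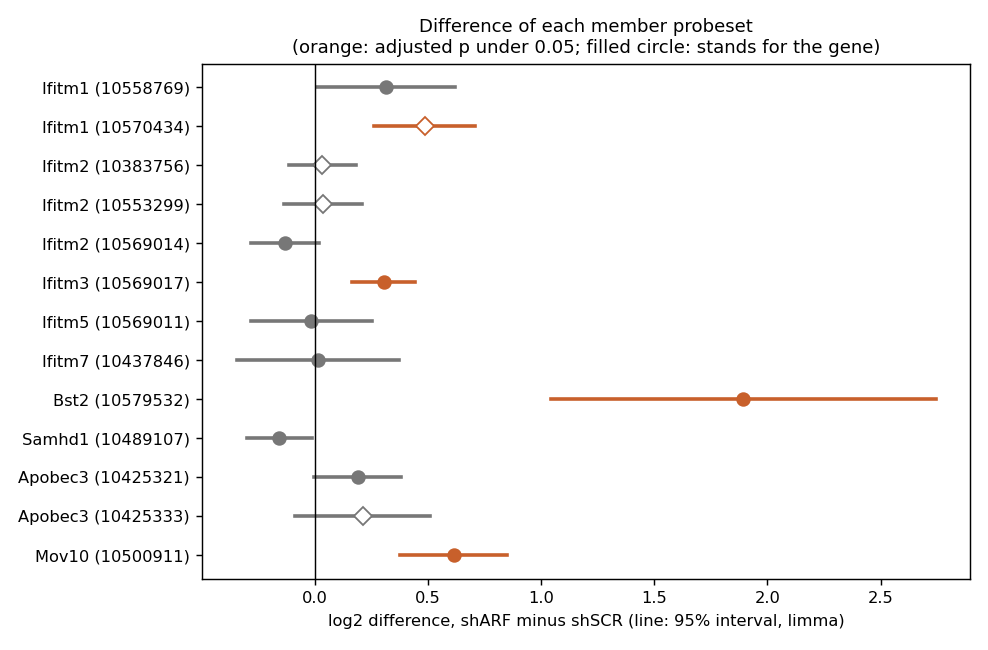
Log2 difference (shARF minus shSCR) of each of the 13 member probesets with its 95% interval from limma; orange marks an adjusted p under 0.05 and filled circles the probeset that stands for the gene. The interval of Bst2, 1.04 to 2.74, lies above those of all other probesets, and the 3 Ifitm2 probesets lie on both sides of 0.

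Samhd1 and Apobec3, the restriction factors that act on nucleotides and on viral DNA, did not pass. Samhd1 gave 943, 934 and 865 in shSCR and 807, 831 and 816 in shARF. The shARF arrays lay below the shSCR arrays without overlap, and the difference was -0.16 ± 0.061 (SE; 95% interval -0.30 to -0.01; limma, adjusted p = 0.205). Apobec3 gave 209.9, 184 and 174 in shSCR and 217, 207 and 221 in shARF, with shSCR replicate 1 above shARF replicate 2. Its difference of 0.19 had a 95% interval of -0.01 to 0.38 (limma, adjusted p = 0.255). The other Apobec3 probeset (10425333) differed by 0.21, with overlapping groups (limma, adjusted p = 0.394).

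Members were also compared with each other within each array. The 4 pairs below were chosen after their values were seen, and with 3 arrays against 3 the exact two-sided permutation test cannot go below 0.1. Relative to the shSCR mean, the log2 distance from Ifitm2 to Ifitm3 was -0.08, 0.09 and -0.01 on the shSCR arrays and 0.41, 0.48 and 0.41 on the shARF arrays. Against that Ifitm2 probeset (10569014), Ifitm3 changed by 0.44 more (exact permutation p = 0.1, adjusted over the 4 pairs 0.133), and the groups did not overlap. Against each of the other 2 Ifitm2 probesets, a choice added after the data were seen, it changed by 0.27 more, also without overlap (exact permutation p = 0.1 for both). The change of Ifitm3 minus that of Ifitm1 was -0.01 with the brighter Ifitm1 probeset, with an SD between replicates of 0.16 in shSCR and 0.20 in shARF (exact permutation p = 0.9, adjusted 0.9). It was -0.18 with the Ifitm1 probeset that passed, with overlapping groups (exact permutation p = 0.3). Bst2 changed by 1.59 more than Ifitm3, and Mov10 by 0.77 more than Samhd1, each without overlap (exact permutation p = 0.1 for both, adjusted 0.133).

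**Figure D3:**
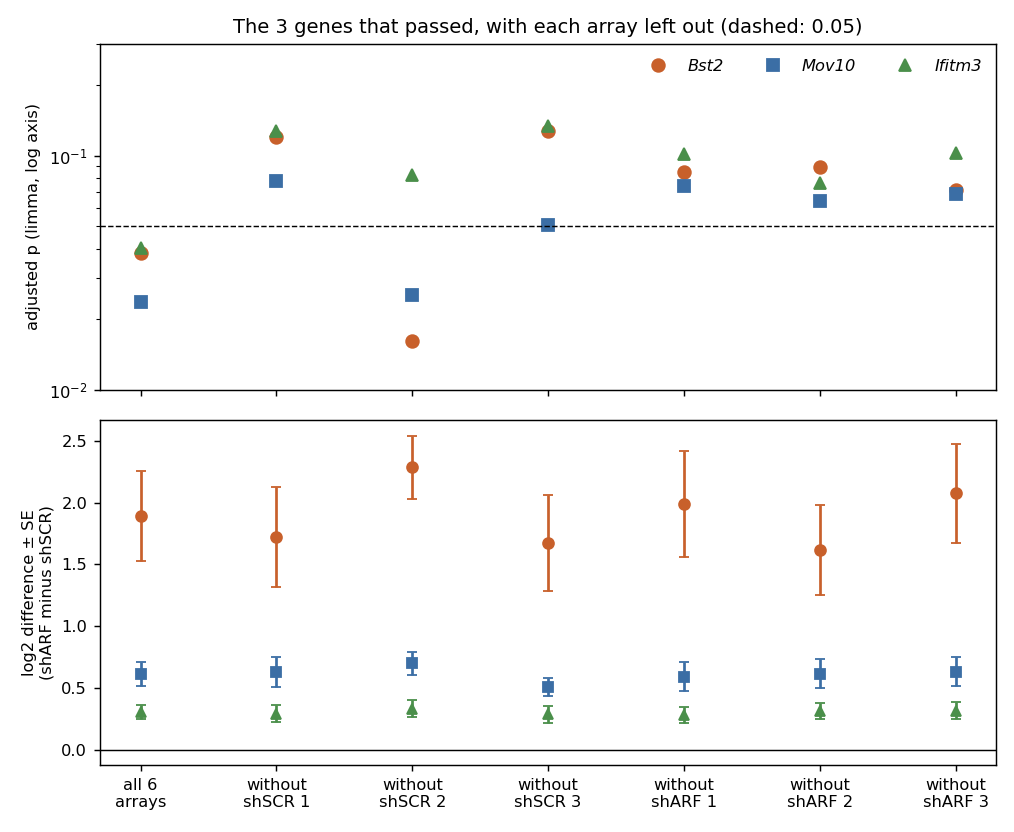
Adjusted p in limma (upper panel, log axis, dashed line at 0.05) and log2 difference ± SE (lower panel) of Bst2, Mov10 and Ifitm3 with all 6 arrays and with each array left out. The differences keep their sign in every fit, and only without shSCR replicate 2 do Bst2 and Mov10 stay under 0.05.

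A list of other restriction factors and antiviral effectors held 36 genes. Of the 29 that were tested, 11 rose, 0 fell and 18 did not pass, with a median log2 difference of 0.32 (all tested genes, 1.62% higher and a median of -0.01). SAM called 12 higher and 0 lower, and before adjustment 16 were higher and 1 was lower in limma. Rsad2, which encodes the antiviral enzyme viperin, rose 2.41-fold, from a mean signal of 27.5 to one of 67.4. Zbp1, a sensor of Z-form nucleic acid, rose 1.96-fold, and Trim12c and Trim21, of the TRIM family of ubiquitin ligases, rose 2.05-fold and 1.83-fold. Eif2ak2, the double-stranded RNA-activated kinase PKR, rose 1.49-fold, and Zc3hav1, the CpG-binding antiviral protein ZAP, 1.63-fold. Mx2, an antiviral GTPase, was above the detection level on 1 of 3 shSCR arrays and on 3 of 3 shARF arrays, with 13.5 ± 6.84 (SD, n = 3) against 63.5 ± 7.08. It thus entered the test, and the count of 11, only through the group where it was high. Trim30a, which did not pass, entered the 29 in the same way. The count and the median of the list include these genes. The remaining rises were those of Lgals3bp, Trim25, Adar and Znfx1. Serinc3, which encodes a membrane protein that lowers retroviral infectivity, differed by 0.05 and Apobec1, a cytidine deaminase of the same family as Apobec3, by 0.37, and neither passed. The count of 11 was 4 without shSCR replicate 1 and 4 without shSCR replicate 3, and 7 without each shARF array. Trim12c, Trim21 and Zbp1 kept their calls without any 1 array.

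The genes that carry the interferon signal to such targets did not all move the same way. Of 15 tested, 5 rose, 1 fell and 9 did not pass, with a median log2 difference of 0.02. Stat2, Irf9, Irf1, Irf7 and the feedback gene Usp18 rose by 0.44 (Irf1) to 2.41 (Usp18) on the log2 scale, and Ifngr1, which encodes a subunit of the type II interferon receptor, fell by 0.56. The call of Stat2 held without any 1 of the 6 arrays, those of Irf7 and Usp18 without 4, those of Irf9 and Ifngr1 without 2, and that of Irf1 without 1. Ifnb1 was below the detection level on all 6 arrays.

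Partners of single members were read beside the calls of all tested genes. Of those, limma called 1.62% higher and 2.38% lower, and SAM 2.67% and 3.92%. At such shares, lists of this size would hold few calls in any case. Of 15 tested genes that modify, bind or resemble IFITM proteins, 0 passed in limma and 0 in SAM, and 1 was higher before adjustment in limma, with a median of -0.02. The smallest p was that of Setd7, a lysine methyltransferase that modifies IFITM3, at a difference of 0.22 ± 0.059 (SE; limma, adjusted p = 0.0975). The tetraspanin genes Cd81 and Cd9 differed by 0.13 and 0.15. Of 17 tested genes of deoxynucleotide supply and the cyclin-dependent kinase control of SAMHD1, 0 passed in limma and 0 in SAM, while before adjustment limma had 1 higher and 4 lower (all tested genes, 8.76% and 13.4%). Of these 17 differences 3 were positive, against 46.78% of all tested genes, and the median was -0.09. Cdk2, a kinase that phosphorylates SAMHD1, differed by -0.26 ± 0.062 (limma, adjusted p = 0.0752), and the thymidine kinase gene Tk1 by -0.29 ± 0.077 (limma, adjusted p = 0.0931). Of 23 tested genes of RNA granules, silencing and decay linked to MOV10, 1 rose and 0 fell, with a median of 0.01. Before adjustment 4 were higher and 3 lower in limma, and SAM called 1 higher and 1 lower. The gene that rose was Tut4, a terminal uridylyltransferase, from 162 ± 15.2 (SD, n = 3) to 223 ± 15.4, a call lost without any 1 of the 6 arrays. The Argonaute genes Ago1, Ago2 and Ago3 differed by -0.07, -0.22 and -0.26, and Edc4 by -0.25. Tnrc6a, Dcp1b and Patl1 differed by 0.23, 0.20 and 0.16. None of these genes passed.

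**Figure D4:**
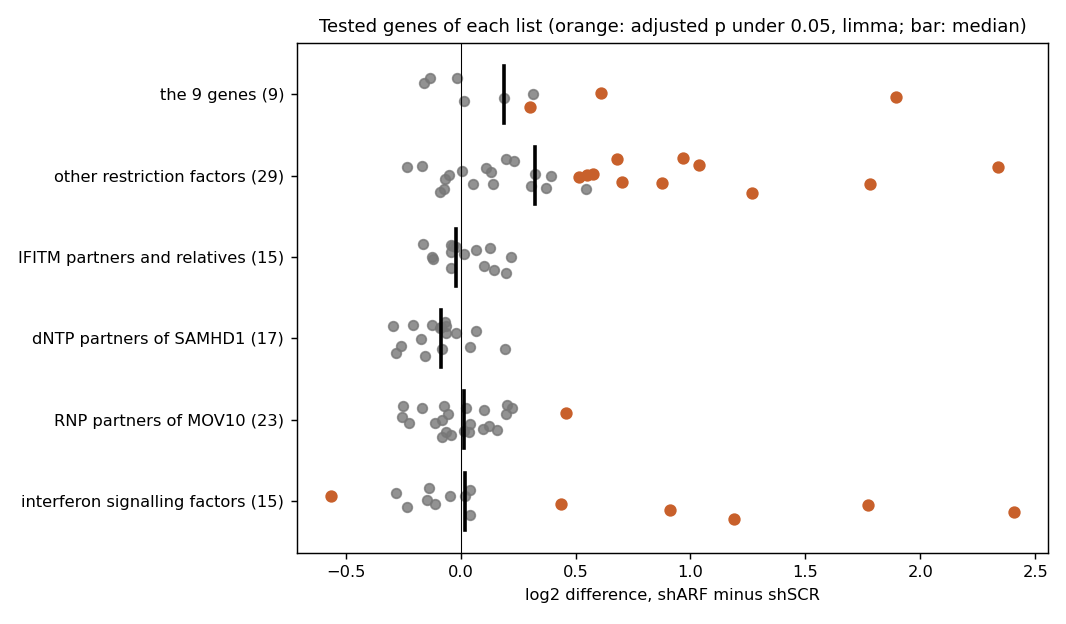
Log2 difference (shARF minus shSCR) of every tested gene of the 9 members and of the 5 other lists, with the number tested in brackets, the median as a bar and calls at an adjusted p under 0.05 in orange. The calls lie almost all to the right in the lists of other restriction factors (11 of 29) and of interferon signalling factors (6 of 15). In the 3 lists of partners 0 to 1 are seen. Of all tested genes, 4.01% were called.

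Genes beside the IFITM cluster on chromosome 7 did not pass. The 2 nearest tested genes on either side in RefSeq order were Nlrp6 and Pgghg, and B4galnt4 and Pkp3. They differed by 0.04, -0.09, -0.24 and 0.02 (limma, adjusted p = 0.803, 0.63, 0.0597 and 0.888).

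The genes nearest in pattern to each member that rose were found by the mean absolute log2 distance over the 6 arrays, each gene set relative to its shSCR mean. They were picked on these same arrays for values close to those of a called gene. Their similar differences and calls follow from that choice and are a description only. For Bst2 they were Lgals3bp, Irf7 and Samd9l, at distances of 0.11, 0.18 and 0.23. Lgals3bp, a secreted glycoprotein, rose from 241 ± 104 (SD, n = 3) to 793 ± 170. For Mov10 they were Add2, Dock8 and Kcnn4, at distances of 0.05 to 0.06, with log2 differences of 0.58, 0.66 and 0.59. For Ifitm3 they were Pnpt1, Dnm1 and Furin, at distances of 0.02, with log2 differences of 0.28, 0.29 and 0.33, of which that of Dnm1 did not pass (limma, adjusted p = 0.0621). The calls of Pnpt1 and Furin were lost without any 1 of the 6 arrays, and those of Lgals3bp and Add2 held without 1 of them, Samd9l without 2, Dock8 without 3 and Irf7 and Kcnn4 without 4.

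Markers of the labelled cell type and of other cell types were read on the same arrays. All 10 fibroblast markers were measured, and 0 passed in limma (before adjustment, 2 were higher and 2 lower). The summed signal of the fibroblast markers was 22190 to 23830 in shSCR and 23980 to 24670 in shARF. Of 12 macrophage and myeloid markers 7, among them Ptprc, Adgre1, Csf1r, Itgam and Lyz2, were not above the detection level on 3 arrays, and the summed signal was 263 to 284 in shSCR and 272 to 309.6 in shARF. Cd53, of the same list, rose by 0.66, a call lost without any 1 of the 6 arrays. The other 4 tested markers of that list did not pass. Cd68 differed by -0.36, with its shARF arrays all below its shSCR arrays. Cd14, Tyrobp and Fcer1g differed by 0.12, 0.18 and 0.11. Of 11 measured lymphocyte and plasmacytoid dendritic cell markers 7 were not above that level on 3 arrays, among them Cd79a, and the sums were 764 to 810.2 and 798 to 863. Most of these sums was the signal of Tcf4, with means of 658 in shSCR and 698 in shARF. The other tested markers, Cd3e, Cd8a and Cd79b, had means of 28.3, 23.3 and 16.7 in shSCR. Their shARF means were 25.3, 27.5 and 19.8, and none of the tested markers of this list passed. Of 5 measured osteoblast markers 3 were tested, and the sums started at 67.9 in shSCR and reached 84.3 in shARF, with overlap. Of 8 epithelial markers 6 were tested, and the sums were 266 to 308 and 371 to 511, with Krt18 higher by 0.93, a call that held without 1 of the 6 arrays. The rise of the sums was mostly that of 2 keratins. Mean signals in shSCR and shARF were 129 and 250 for Krt18, and 57.1 and 96.5 for Krt8, which did not pass. Epcam, Krt5, Krt14 and Cldn4 differed by 0.14, 0.27, 0.19 and -0.23 and did not pass. Cdh1 and Esrp1 were not above the detection level. The endothelial sums were 182 to 206 and 180 to 194, and those of germ cell and pluripotent markers 103 to 108 and 97.7 to 112. The part of the epithelial markers and of Cd53 in the rises of Bst2, Mov10 and Ifitm3 was not tested.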

How the data were processed

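The 6 arrays gave 26851 probesets. Per the submitters' processing notes and the design text, the authors restricted the arrays to core probesets and made the deposited intensity values by RMA with Affymetrix Expression Console, whose version is not named. These values, 3.14 to 12717.5, are on a linear scale and were converted to log2. RMA makes folds of dim genes smaller and hides a change common to most genes. Array medians were 41.97 to 42.86. Arrays have no read depth, and their number limits the precision.

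Probesets with 1 symbol in the platform annotation (21056) were named. The 20310 probesets above the 25th percentile on at least 3 arrays were fitted with limma 3.58.1 in R 4.3.3 (lmFit, eBayes, two-sided), with Benjamini-Hochberg adjustment over all of them, and 15145 genes were read by their highest-mean probeset; the fit and SAM were tested on simulated data. Intervals of 95% come from the same fit. Alternatives were a replicate block, each array and both replicate 2 arrays left out, other detection levels, a pseudocount of 16, 2 scalings, an intensity trend, SAM and probeset means. The members, lists and tests were chosen with earlier results of these data known. Genes named are the members, list genes that passed or had small p, cluster neighbours and nearest patterns; some list genes were chosen after their values were seen. Protein sequences were not used here.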

Additional observations from a re-analysis of the deposited data

How the results depend on the processing

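The 9 genes kept the sign of their difference in all alternatives run except Ifitm5 and Ifitm7, which did not pass in any of them. Leaving out 1 array gave 0 to 2 members higher and 0 lower, 64 to 156 of all genes higher and 85 to 177 lower, 4 to 11 other restriction factors higher, 1 to 4 interferon signalling factors higher and 0 to 1 lower, and 0 MOV10 partners; the differences were 0.28 to 0.33 for Ifitm3, 1.62 to 2.29 for Bst2, 0.51 to 0.70 for Mov10 and 0.41 to 0.56 for the called Ifitm1 probeset. These fits have fewer arrays.

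Over probesets as a whole the replicate numbers did not pair the arrays. Same-numbered deviations correlated at 0.08, 0.05 and 0.00, and shSCR replicate 3 correlated best with shARF replicate 2. Single genes or groups of genes could differ from this, as for Bst2 the replicate 2 array was the highest in both groups. With the number as a replicate block, all genes called were 153 higher and 183 lower, 2 members were higher, Ifitm3 at 0.30 was lost (limma, adjusted p = 0.101), and 0 MOV10 partners rose and 0 interferon signalling factors fell. The 2 members were Bst2 and Mov10. The SE of Bst2 was 0.095 with the block and 0.36 without it (limma with the block, adjusted p = 0.00517). Mov10 had an SE of 0.088 with the block (limma, adjusted p = 0.0409). The SE was also smaller with the block for Usp18 (0.34 to 0.10), Irf7 (0.24 to 0.10), Lgals3bp (0.29 to 0.12) and Samd9l (0.25 to 0.099). It was larger for Ifitm3 (0.059 to 0.067), Irf1 (0.070 to 0.077) and Tut4 (0.090 to 0.094). Whether the numbers pair the arrays for such genes was not tested.

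Without both replicate 2 arrays the counts were 84 higher and 67 lower of all genes, 1 member, 0 MOV10 partners, and 3 interferon signalling factors higher and 0 lower; Ifitm3 at 0.34, Mov10 at 0.70 and the Ifitm1 probeset at 0.49 were lost. With no detection filter 208 genes were lower, 1 member was higher and 0 MOV10 partners; Bst2 at 1.89, Ifitm3 at 0.30 and the Ifitm1 probeset at 0.48 were lost (limma, adjusted p = 0.055, 0.0717 and 0.0653). Quantile normalizing again lost Ifitm3 at 0.25, and an intensity trend lost Bst2 at 1.89 (limma, adjusted p = 0.095). The cause was not tested.

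Counts of all genes higher and lower were 371 and 625 with detection at the array median, 379 and 599 with the pseudocount, 500 and 781 with the trend and 404 and 593 in SAM. In these fits and with probeset means, 2 interferon signalling factors were lower; in the first 3 fits 2 SAMHD1 partners were lower, and 2, 2 and 1 MOV10 partners were lower (1 in SAM). IFITM partners called higher were 1 at the array median and 2 with the trend. Median centring and requantiling moved the median of all probesets by 0.0024 and -0.0022.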
